A study of Homo sapiens with 9 samples.

Results

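The 9 genes described here encode erythroid surface proteins, among them several glycophorins and other carriers of blood group antigens: GYPB, GYPC, GYPE, RHAG, KEL, ICAM4, CD44, BSG and ERMAP. They were chosen by symbol from the 63677 gene IDs of the count lists, and all 9 had reads in every library and passed the filter on low counts. RNA was measured in K562, a human erythroleukaemia line from a chronic myeloid leukaemia. The series comprised 9 libraries: 1 of the parental line, 1 from each of 4 CRISPR clones that kept wild-type SRSF2 (W19, W33, W36 and W42, the WT clones) and 1 from each of 4 CRISPR clones in which the splicing factor SRSF2 carries the P95H substitution (P95H clones P9, P15, P22 and P38). No treatment was named for any group. The parental library shares the unedited SRSF2 sequence with the WT clones but did not pass through cloning. Each clone gave 1 library, so errors here reflect differences among clones, which may or may not stem from independent editing events, a point on which the labels are silent.

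Blood group antigens sit on proteins that do ordinary work in the red cell membrane. Glycophorins coat the cell with sialic acid, and glycophorin C also ties the membrane to the spectrin skeleton through protein 4.1R and the scaffold p55. RHAG forms the core of the Rh complex and moves ammonium, Kell is a surface metallopeptidase, and the LW glycoprotein (ICAM4) and CD44 bind integrins and hyaluronan. K562 cells make embryonic and fetal globins and have long served as a model of early erythroid gene expression.

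Reads counted in genes ranged from 24546255 to 35477328 per library. Levels are given in CPM, read counts scaled to a common library total with TMM factors. A floor of 3 counts amounts to between 0.0846 and 0.122 CPM before the TMM factors are applied, which covers counting error only. The labelled erythroid identity was checked against 11 erythroid markers, all of which had reads in every library, with summed levels of 3095 to 5181 CPM in WT clones and 2690 to 7882 CPM in P95H clones. Many markers of other lineages were near 0: of 7 lymphocyte markers 5 had a mean under 1 CPM, of 7 megakaryocyte markers 5, of 7 monocyte and granulocyte markers 4 and of 6 fibroblast markers 5, whereas the epithelial genes KRT8, KRT18 and EPCAM were expressed in every library. Several leukocyte genes were expressed too: PTPRC (CD45) was at 23.1 to 193 CPM in the WT clones and 113 to 150 CPM in P9, P15 and P38 but at 0.179 CPM in P22, CD3D was at 1.08 to 23.4 CPM and LYZ at 9.80 to 32.0 CPM over the 8 clones. W33 stood apart from the other WT clones, with 2457 of 18173 genes called (13.5%), and P22 from the other P95H clones, with 67 called (0.369%). The counts per gene do not show the SRSF2 substitution itself.

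Levels of different genes were compared per kilobase of exon. Over the 8 clones RHAG was the highest at 183 ± 62.1 CPM per kilobase (mean ± SD, n = 8), followed by BSG, the Ok blood group protein, at 160 ± 43.5 and GYPC at 47.7 ± 17.7. KEL averaged 22.2 ± 8.75 CPM per kilobase and ICAM4 20.2 ± 5.42. ERMAP (10.4 ± 4.53), GYPE (10.1 ± 8.03), GYPB (4.60 ± 5.17) and CD44 (0.893 ± 1.33) formed the lower end of the order on the same scale. Only the step from BSG to GYPC separated neighbours in the order without overlap of their clone ranges. Within single clones the order was more regular than these ranges: GYPC was above KEL, ICAM4 above ERMAP and GYPE above GYPB in 8 of 8 clones, while RHAG was above BSG in 6 of 8, ERMAP above GYPE in 5 of 8 and KEL above ICAM4 in 3 of 8.

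**Figure D1:**
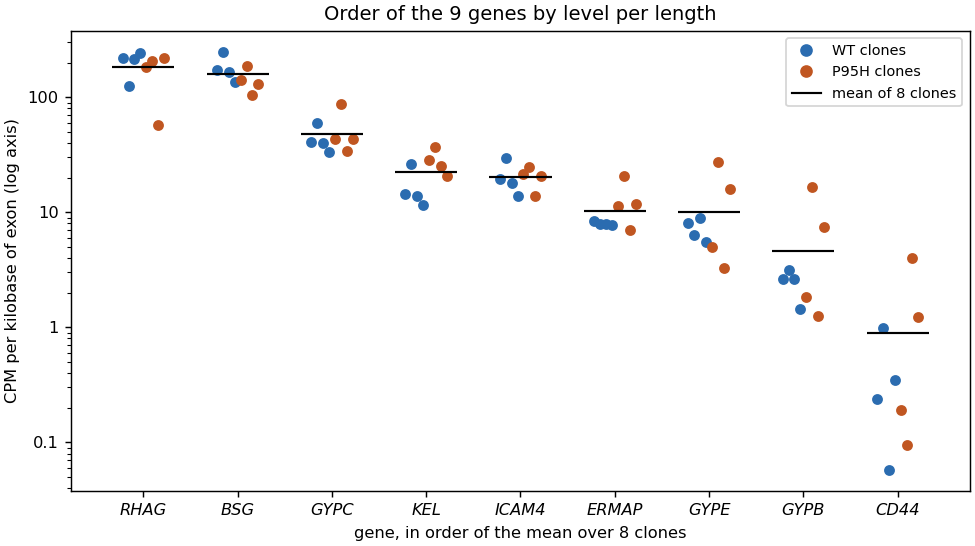
Level per length of the 9 genes, in CPM per kilobase of exon on a log axis, with 1 point for each of the 8 clones (blue, WT; orange, P95H) and a black line at the mean. RHAG and BSG lie above all other genes in most clones, and the points of CD44, GYPB and GYPE are the most widely spread on the log axis.

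The comparison the study was built for, P95H against WT clones, gave no call for these genes. In edgeR's quasi-likelihood test 0 of the 9 genes had an adjusted p under 0.05, against 0 of 18173 genes tested (0%). At an unadjusted p under 0.05 there were 2130 genes in all, and among the 9 there were 2, KEL and ERMAP, both higher in P95H clones, against 6.07% of all genes higher at that level. With P15 left out the 2 at that level were KEL, higher, and BSG, lower, and with P22 left out there were 4, GYPB, GYPE, KEL and ERMAP, all higher. DESeq2 called 261 genes (1.44%) and none of the 9, and limma-voom with quality weights called 59 genes (0.325%), of which KEL was 1. None of the 9 had CPM values that did not overlap between the groups, against 8.57% of all genes. The fitted log2 difference was above 0 for 7 of the 9 genes with a median of 0.67, beside 52.1% of all genes and a median of 0.01. Without P15 it was above 0 for 5 of the 9 with a median of 0.17, and limma-voom gave 7 of 9 with a median of 0.23.

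**Figure D2:**
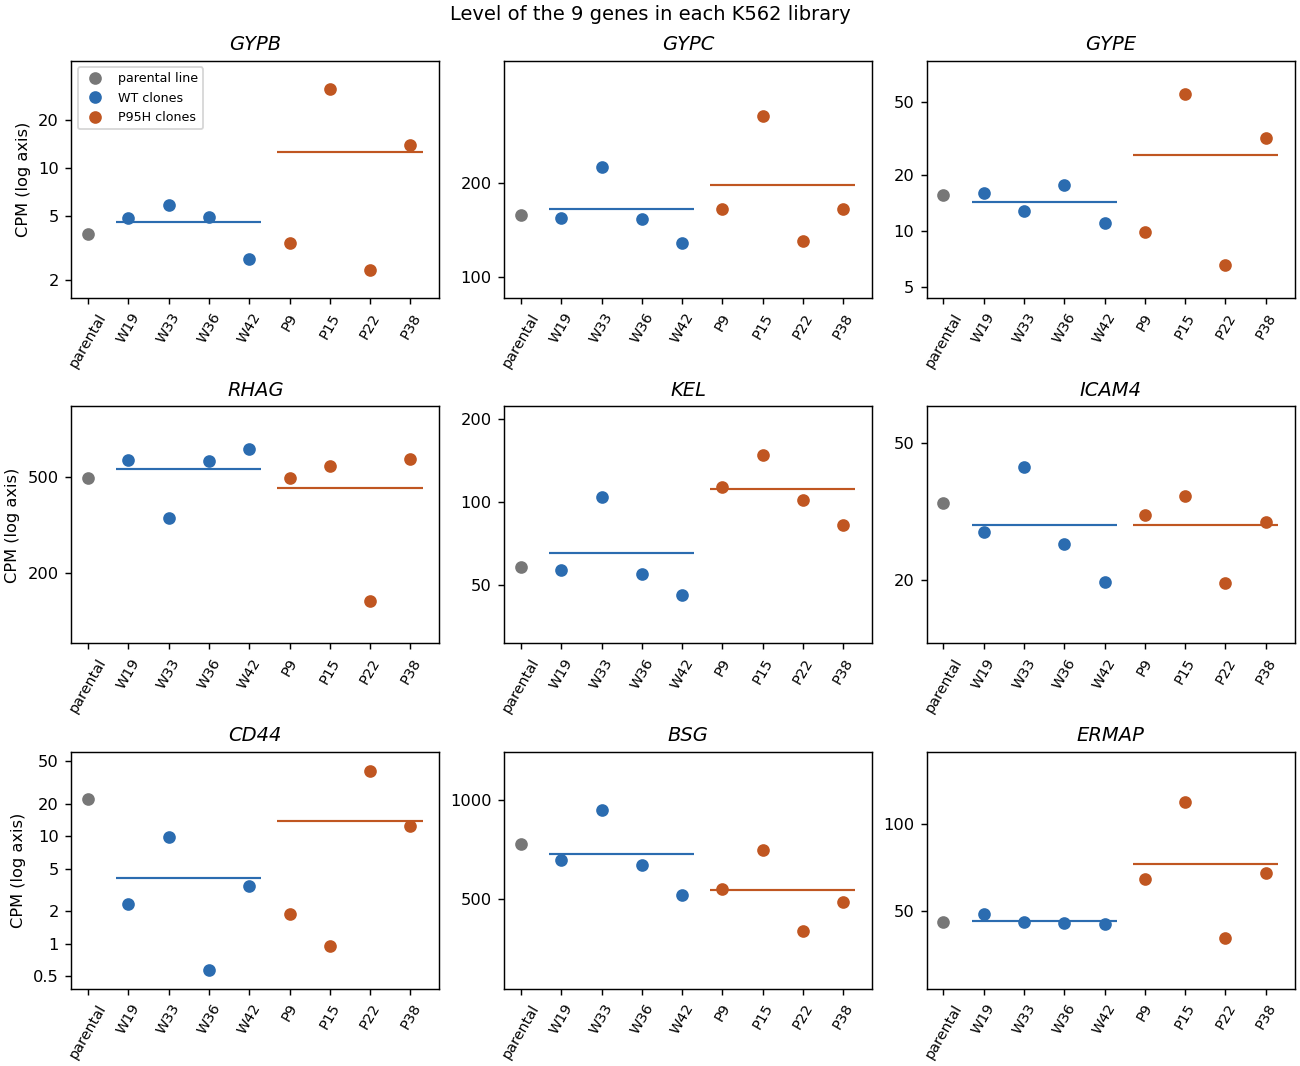
CPM of each of the 9 genes in the 9 libraries, on log axes whose ranges differ between panels; grey is the parental line, blue the WT clones, orange the P95H clones, and lines mark the mean of each group of 4 clones. GYPB and GYPE are highest in P15 and next highest in P38, RHAG is lowest in P22, and CD44 is highest in P22.

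Among the glycophorins, GYPB (ENSG00000250361, chromosome 4), whose product carries the S and s antigens, varied over the clones by 13.2-fold between the highest and the lowest. It was read at 3.89 CPM in the parental line and at 4.91 CPM in W19, 5.92 in W33, 4.97 in W36 and 2.72 in W42. In P95H clones it was at 3.41 CPM (P9), 30.8 (P15), 2.33 (P22) and 13.9 (P38). P15 and P38 were thus above every WT clone, P22 was below every one, and P9 lay within their range. The group means were 4.63 ± 1.35 CPM (SD, n = 4) in WT and 12.6 ± 13.2 CPM (n = 4) in P95H clones, a log2 difference of 1.46 (SE 0.71, edgeR adjusted p = 0.458). Without P15 the P95H mean was 6.55 ± 6.40 CPM and the log2 difference 0.51. The read numbers behind these values were small, 74 to 997 per library.

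GYPE (ENSG00000197465), a neighbour of GYPB on chromosome 4 that arose in the same gene family by duplication, followed the same order among the P95H clones. Its level was 15.7 CPM in the parental line, 16.1 in W19, 12.8 in W33, 17.7 in W36 and 11.1 in W42. P9 had 9.96 CPM, P15 55.2, P22 6.54 and P38 31.9. Here too P15 and P38 exceeded all WT clones, while P9 and P22 were both below all of them. The means of 14.4 ± 3.03 CPM (n = 4) in WT and 25.9 ± 22.5 CPM (n = 4) in P95H clones gave a log2 difference of 0.85 (SE 0.57, edgeR adjusted p = 0.579), which was 0.17 without P15. The spread within the groups was unequal: 1.60-fold from lowest to highest among WT clones and 8.44-fold among P95H clones.

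The start regions of both genes are nearly the same sequence, which is shown because GYPB and GYPE were high and low in the same P95H clones. The RefSeq promoter windows (GRCh38.p14; 250 bases before to 50 after a start) matched at 97.6% of 294 aligned bases, with 7 differences. The stretches below end 31 bases before the GYPB start and 37 before the GYPE start and are written 5′ to 3′ on the minus strand of chr4:144019376-144019495 and chr4:143905596-143905715. Capitals mark the motif GATAA, which GATA factors are known to bind.
GYPB: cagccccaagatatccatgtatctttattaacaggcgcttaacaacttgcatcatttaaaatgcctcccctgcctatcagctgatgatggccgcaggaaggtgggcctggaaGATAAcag
GYPE: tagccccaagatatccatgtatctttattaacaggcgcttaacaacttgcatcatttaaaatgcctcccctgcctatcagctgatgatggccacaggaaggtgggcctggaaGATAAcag
Counted from 1 at the 5′ end of the stretch with the GYPB base first, they differ by C1T and G93A, and 118 of 120 bases are identical. The single GATAA begins 38 bases before the GYPB start and 44 before the GYPE start.

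The ratio of GYPE to GYPB in CPM was not constant. It was 4.02 in the parental line, 3.27 in W19, 2.17 in W33, 3.57 in W36 and 4.07 in W42, against 2.92 (P9), 1.79 (P15), 2.81 (P22) and 2.30 (P38). The ranges of the groups overlapped, and the lowest ratio belonged to the clone in which both genes were highest. Of the 50-base words in GYPB transcripts 12.7% also occur in transcripts of other genes (3.51% of 100-base words), against 1.15% in GYPE (0 of 100-base words), so reads from shared stretches could not be assigned to GYPB with the same certainty.

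GYPC (ENSG00000136732, chromosome 2), which encodes the Gerbich antigen carriers glycophorins C and D from a separate gene family, was expressed well above the other glycophorins per length. Its levels were 158 CPM in the parental line, 155 in W19, 226 in W33, 154 in W36 and 128 in W42. They were 165 CPM (P9), 331 (P15), 130.5 (P22) and 165 (P38). P15 alone lay above the WT range, with the other P95H clones inside it. The log2 difference between means of 166 ± 42.2 (WT, n = 4) and 198 ± 90 CPM (P95H, n = 4) was 0.27 (SE 0.28, edgeR adjusted p = 0.737). It changed sign, to -0.10, when P15 was left out.

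RHAG (ENSG00000112077, chromosome 6), the Rh-associated glycoprotein without which Rh antigens do not reach the surface, had 1 low clone in each group. It stood at 497 CPM in the parental line, 587 in W19, 337 in W33, 581 in W36 and 653 in W42. P9 had 493 CPM, P15 552, P22 153 and P38 593. W33 was the lowest WT clone, P22 was the lowest of all 8 clones, and the 3 other P95H clones lay inside the WT range. The means were 539 ± 139 CPM (WT, n = 4) and 448 ± 201 CPM (P95H, n = 4), with a log2 difference of -0.26 (SE 0.37, edgeR adjusted p = 0.804) that became 0.02 without P22. Set against the 3 other P95H clones, P22 had a log2 difference of -1.82 (SE 0.37, edgeR adjusted p = 0.102; unadjusted p = 0.000782). The P22 value rests on 5132 RHAG reads.

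The RHAG promoter window holds 1 copy of the same motif, on the other strand (TTATC), 31 bases before the start. It is shown, with those of KEL and ERMAP, because 5 of the 9 genes have a GATAA on either strand in the 250 bases before an annotated start, namely GYPB, GYPE, RHAG, KEL and ERMAP. Counted by window, since some of these genes have more than 1 annotated start, 5 of 12 windows hold the motif in those 250 bases, beside 20.4% of the 35116 windows in the table. The other annotated start of GYPB and that of ERMAP have none wholly there. The GYPB windows (chr4:144019331-144019630 and chr4:144019296-144019595) overlap, so the 12 windows are not separate. The GATAA counted for the second GYPB window runs across the start of the first. GYPC, ICAM4, CD44 and BSG have none in these windows. Each stretch covers the last 100 bases before the start, 5′ to 3′ on the gene's strand (GRCh38.p14), with the motif in capitals: RHAG on the minus strand at chr6:49636840-49636939, KEL on the minus strand at chr7:142962364-142962463 and ERMAP, at the second of its annotated starts, on the plus strand at chr1:42825461-42825560.
RHAG: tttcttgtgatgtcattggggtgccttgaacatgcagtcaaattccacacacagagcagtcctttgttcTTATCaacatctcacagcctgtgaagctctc
KEL: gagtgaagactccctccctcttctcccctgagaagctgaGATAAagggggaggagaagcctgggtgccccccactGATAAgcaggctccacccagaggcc
ERMAP: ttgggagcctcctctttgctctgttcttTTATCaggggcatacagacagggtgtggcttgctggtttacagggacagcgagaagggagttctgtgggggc
KEL has 2 copies, 61 and 25 bases before its start, and ERMAP has 1 at 72 bases before. Of the 5 genes that were highest in P15, 4 have the motif, beside 5 of all 9. Among these 4 are GYPB and GYPE with their nearly identical start regions. The 20.4% is a share of windows and no background for this count of genes, and a link between motif and level was not tested. CACCC (either strand) was in 54.7% and CCNCNCCC (either strand), which can overlap it, in 53.4% of all windows, and both were in windows of most of the 9 genes, GYPE having neither.

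KEL (ENSG00000197993, chromosome 7) encodes the Kell glycoprotein, an endopeptidase of the neprilysin family that cleaves big endothelin-3 and is linked to XK by a disulfide bond. Of the 9 genes it came nearest to a separation of the groups. The parental line had 58.3 CPM, W19 56.9, W33 104, W36 54.7 and W42 46.2. The P95H clones had 113 CPM (P9), 148 (P15), 101 (P22) and 82.3 (P38). All 4 P95H clones were above 3 of the 4 WT clones and above the parental line, and W33 was above P22 and P38. Means of 65.5 ± 26.1 CPM (WT, n = 4) and 111 ± 27.5 CPM (P95H, n = 4) corresponded to a log2 difference of 0.78 (SE 0.26, edgeR adjusted p = 0.337; unadjusted p = 0.0132). The adjusted p was 0.122 with DESeq2 and 0.0494 with limma-voom and quality weights, and the log2 difference ranged from 0.61 to 1.12 over all alternatives. W33 against the other WT clones was 0.95 higher on the log2 scale (SE 0.27, edgeR adjusted p = 0.0515), and the adjusted p was 0.0461 with a filter of 1 CPM in 4 libraries and 0.0486 with RLE scaling. In that comparison 13.5% of all genes were called.

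ICAM4 (ENSG00000105371, chromosome 19), the carrier of the LW antigens and a ligand of several integrins, differed little between the groups. It was at 33.6 CPM in the parental line, 27.5 in W19, 42.7 in W33, 25.5 in W36 and 19.7 in W42, and at 31.0 (P9), 35.1 (P15), 19.6 (P22) and 29.5 (P38). The means were 28.8 ± 9.81 CPM (WT, n = 4) and 28.8 ± 6.59 CPM (P95H, n = 4), with a log2 difference of 0.01 (SE 0.24, edgeR adjusted p = 0.991) whose sign depended on the scaling and on which clone was left out. In GENCODE 29, which is not the release used for counting, the exons of ICAM4 lie entirely (100%) inside those of the antisense gene AC011511.5. That gene had 802 to 1464 reads and ICAM4 535 to 1165. Since the strand setting of the counting is not given in the sources used here, reads of the pair cannot be told apart, and this limits every ICAM4 value.

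CD44 (ENSG00000026508, chromosome 11), the hyaluronan receptor that carries the Indian blood group antigens, was the most variable of the 9. It was at 22 CPM in the parental line, 2.37 in W19, 9.79 in W33, 0.577 in W36 and 3.46 in W42. P9 had 1.91 CPM, P15 0.957, P22 40.1 and P38 12.3. The highest and lowest clones differed by 69.5-fold, and the SD of its log2 CPM over the 8 clones exceeded that of 99.6% of genes tested. P22 and P38 were above every WT clone, P9 and P15 were within the WT range, and the parental line was above all clones but P22. With 4.05 ± 4.01 CPM in WT (n = 4) and 13.8 ± 18.3 CPM in P95H clones (n = 4) the log2 difference was 1.81 (SE 1.11, edgeR adjusted p = 0.543), and it was 0.32 without P22 and 0.86 with the parental library counted as WT. W36 had only 18 CD44 reads and P15 31, so the low end of this range is set by few counts.

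BSG (ENSG00000172270, chromosome 19) encodes basigin, the Ok antigen carrier that brings monocarboxylate transporters to the surface. Its levels were 737 CPM in the parental line, 657 in W19, 937 in W33, 634 in W36 and 513 in W42. In P95H clones they were 538 CPM (P9), 704 (P15), 400.1 (P22) and 491 (P38). P22 and P38 were below all WT clones and the other 2 were within their range. Means of 685 ± 179 CPM (WT, n = 4) and 533 ± 127 CPM (P95H, n = 4) gave a log2 difference of -0.35 (SE 0.21, edgeR adjusted p = 0.527). It stayed below 0 in all 17 alternatives, from -0.51 to -0.06, without an adjusted p under 0.339.

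ERMAP (ENSG00000164010, chromosome 1), the butyrophilin-like carrier of the Scianna antigens, had the tightest WT clones of the 9 genes. They lay at 48.8 CPM (W19), 45.6 (W33), 45.4 (W36) and 45.0 (W42), a span of 1.08-fold, with the parental line at 45.5. The P95H clones were at 64.7 CPM (P9), 119 (P15), 40.1 (P22) and 67.8 (P38), a span of 2.98-fold. Thus 3 P95H clones were above all WT clones and P22 was below all of them. The means were 46.2 ± 1.72 CPM (WT, n = 4) and 73.0 ± 33.3 CPM (P95H, n = 4), with a log2 difference of 0.67 (SE 0.27, edgeR adjusted p = 0.386; unadjusted p = 0.0318). It was 0.32 without P15 and 0.86 without P22. On the opposite strand AL512353.1 shares 8.30% of the ERMAP exon bases and SVBP 1.09%, and how reads there were assigned is not known either.

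**Figure D3:**
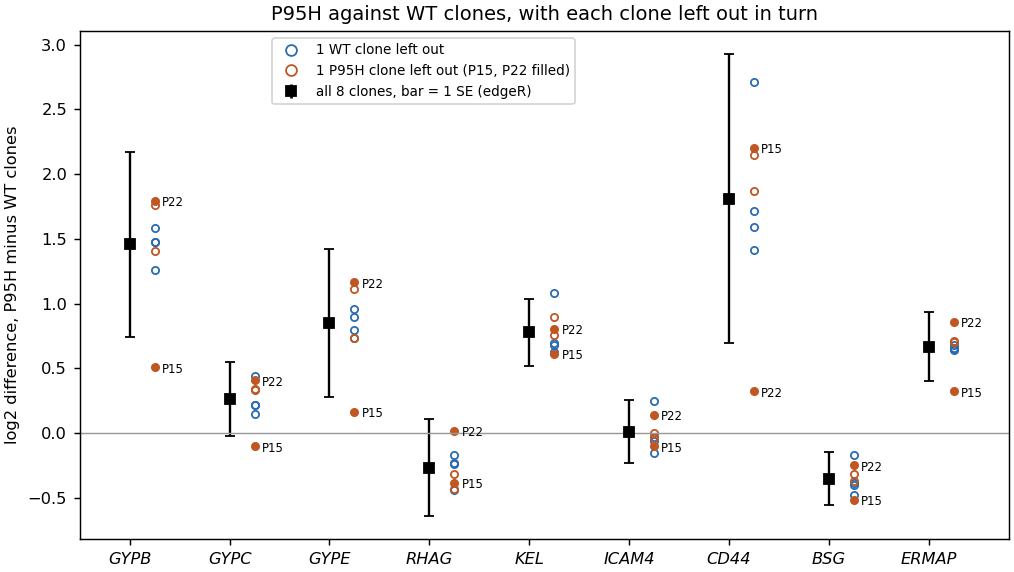
Log2 difference between P95H and WT clones for the 9 genes (edgeR), with the estimate from all 8 clones as a black square, 1 SE as the bar and the 8 estimates with 1 clone left out as circles to its right. Leaving out P15 brings GYPB from 1.46 to 0.51, GYPE from 0.85 to 0.17 and GYPC from 0.27 to -0.10, and leaving out P22 brings CD44 down from 1.81 to 0.32 and RHAG from -0.26 to 0.02.

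Single clones therefore carried much of the variation. P15 was the highest of the 8 clones for 5 of the 9 genes, GYPB, GYPC, GYPE, KEL and ERMAP, beside 14.5% of all genes tested. P22 was the lowest for 6, GYPB, GYPE, RHAG, ICAM4, BSG and ERMAP, beside 13.9% of all genes. W33 was the highest for ICAM4 and BSG, 2 of 9 beside 28.9% of all genes. The 9 genes were not independent of each other in this count, since GYPB and GYPE share sequence and a locus. The summed erythroid markers were also highest in P15 at 7882 CPM and lowest in P22 at 2690 CPM, and their part in these values was not tested. Single markers did not all follow the sum: 5 of 11 were highest in P15 and 4 of 11 lowest in P22, AHSP, HBE1 and EPOR were highest in P9, and ALAS2 at 137 CPM in P22 was above every WT clone. In bulk RNA, fewer cells of a type and less RNA per cell cannot be told apart.

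Tests of each clone against the 3 others of its group, 8 comparisons that share their libraries, called none of the 9 genes. Over all genes these edgeR tests called 13.5% for W33, 0.369% for P22, 0.022% for W42, 0.0055% for P15 and 0% each for W19, W36, P9 and P38. For P15 the log2 difference was 2.24 for GYPB (SE 0.77, adjusted p = 0.491), 1.78 for GYPE (SE 0.66, adjusted p = 0.532), 1.11 for GYPC (SE 0.27, adjusted p = 0.274) and 1.06 for ERMAP (SE 0.25, adjusted p = 0.264). For P22 it was -2.77 for GYPB (SE 1.06, adjusted p = 0.512), -2.29 for GYPE (SE 0.81, adjusted p = 0.426), -1.05 for ERMAP (SE 0.34, adjusted p = 0.342) and 3.01 for CD44 (SE 1.27, adjusted p = 0.593). Each of these comparisons sets 1 library against 3, so a large difference can miss the threshold.

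The parental line differed from the WT clones in none of the 9 genes by edgeR (0 of 9 called, also 0 at an unadjusted p under 0.05 and 0 by DESeq2), beside 1 of 20636 genes called (0.00485%). Its level lay within the WT range for 8 genes, CD44 being the exception. For CD44 the log2 difference was 2.46 (SE 1.51, unadjusted p = 0.138), and it was 3.36 without W33. The other 8 differences ran from -0.25 for GYPB to 0.22 for ICAM4. The lone parental library was assumed to vary like the clones.

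To see whether a clone's value was shared by the surrounding chromosome, genes close by were examined. For each gene, the median deviation of its 20 nearest tested genes from the median of the 8 clones was set beside its own deviation. BSG and its neighbours moved alike in W33 (0.68 and 0.67 on the log2 scale) and in P15 (0.27 and 0.27), as did, by less, those in W42 (-0.19 and -0.25) and P9 (-0.12 and -0.11). They did not in the other clones, P22 (-0.55 and 0.01), P38 (-0.25 and -0.01), W19 (0.17 and 0.01) and W36 (0.12 and -0.01). ICAM4 and its neighbours in W33 were at 0.58 and 0.49, but in P22 at -0.54 and -0.05 and in W42 at -0.53 and 0.001. For the following larger deviations the median over the neighbours was close to the median of the clones. GYPB in P15 was at 2.62 and its neighbours at -0.10, GYPE at 1.94 and -0.01, RHAG in P22 at -1.89 and -0.03, ERMAP in P15 at 1.34 and 0.04, and CD44 in P22 at 3.78 and -0.10. GYPB and GYPE are themselves among each other's 20 nearest tested genes. A median over 20 genes does not show that both were high in P15, and in P38 (1.48 and 1.15). In P15 the neighbours of CD44 were at 0.35 while CD44 itself was at -1.51.

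**Figure D4:**
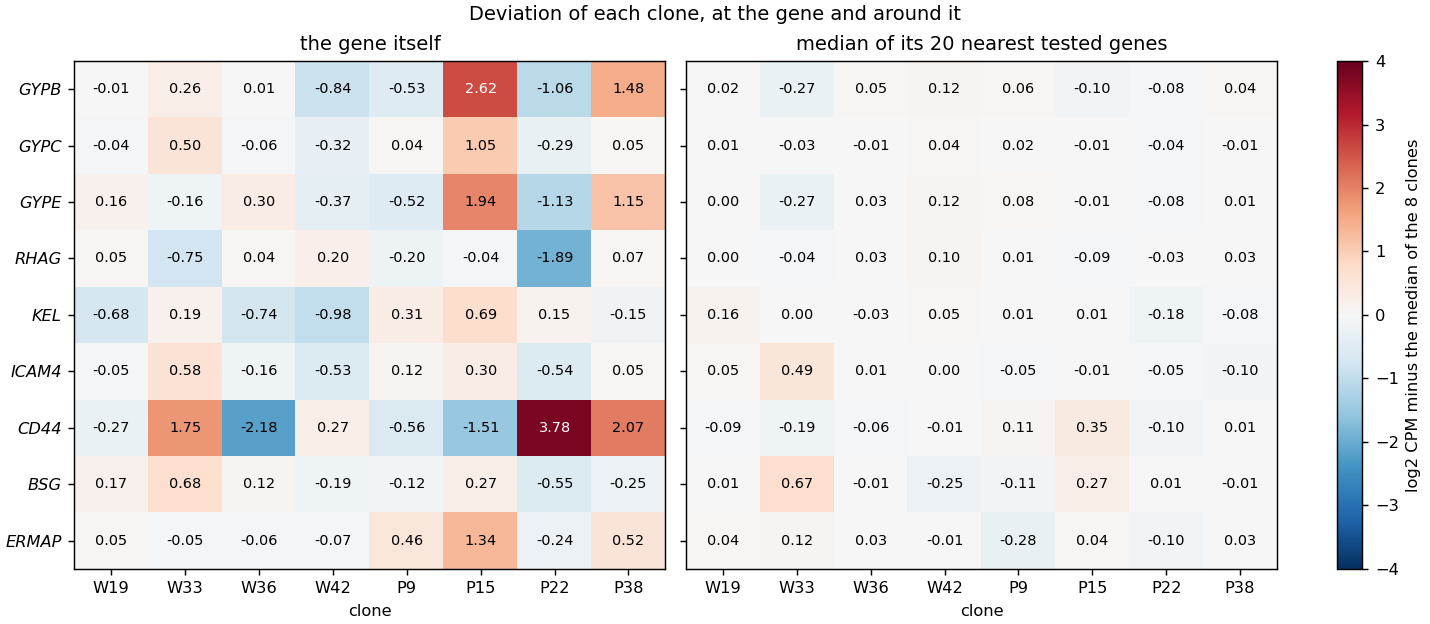
Deviation of log2 CPM in each clone from the median of the 8 clones, for the gene itself (left) and as the median of its 20 nearest tested genes on the same chromosome (right), on 1 colour scale. The medians of the neighbours reach 0.67 (BSG in W33) at most, while GYPB in P15 and CD44 in P22 deviate by 2.62 and 3.78.

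Other genes of the same pathways, grouped by what they do with these proteins, gave 0 calls in any list in edgeR for P95H against WT clones, and counts at an unadjusted p under 0.05 are given instead. Over all genes tested 6.07% were higher and 5.65% lower at that level, 52.1% had a log2 difference above 0 and 8.57% did not overlap between the groups, the background for each list that follows. Of 25 other protein blood group carriers 21 were tested, 13 with a log2 difference above 0, 5 higher and 1 lower at an unadjusted p under 0.05, with a median of 0.13. The smallest p belonged to AQP1, the water channel of the Colton group, at 8.40 ± 4.24 CPM in WT and 36.9 ± 20 CPM in P95H clones (log2 difference 2.15, SE 0.42, adjusted p = 0.256). SLC4A1, the anion exchanger band 3 that carries the Diego antigens, had a log2 difference of 3.23 (SE 0.999, adjusted p = 0.329) from 0.414 to 3.83 CPM, with 12.1 CPM in P15 alone. SEMA7A, the John Milton Hagen carrier, had 1.21 (SE 0.40, adjusted p = 0.337), and AQP3, the glycerol channel of the GIL group, -0.88 (SE 0.34, adjusted p = 0.378). Of 8 enzymes that build glycan blood groups 5 were tested, 4 above 0 and none at an unadjusted p under 0.05 in either direction.

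Among 10 membrane anchors and complex partners of these proteins, 9 had a log2 difference above 0 with a median of 0.31, and 2 were higher at an unadjusted p under 0.05. These were the adducin subunit ADD2 (0.79, SE 0.21, adjusted p = 0.300; 60.6 ± 12.0 CPM in WT, 104 ± 27.4 in P95H) and EPB42, protein 4.2 (1.11, SE 0.34, adjusted p = 0.324). P22 was the lowest P95H clone for both, at 64.0 CPM of ADD2 and 1.07 CPM of EPB42. RHCE and RHD, the Rh antigen carriers that assemble with RHAG, had differences of 0.13 (SE 0.52) and -0.04 (SE 0.43). RHCE was at 63.7 CPM in P15 and 10.5 in P22, and RHD at 27.5 and 5.79, so that both were highest in P15 and lowest in P22 among the P95H clones. RHCE and RHD are near-identical copies, which makes their separate counts uncertain.

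The relatives of KEL went in both directions. Of 9 endothelin peptides and related metallopeptidases 4 were tested, with ECE2 lower (-0.78, SE 0.20, adjusted p = 0.293) and MME, neprilysin, higher (1.29, SE 0.37, adjusted p = 0.318) at an unadjusted p under 0.05. The butyrophilin relatives of ERMAP were above 0 in 5 of 5 tested with a median of 0.87, and 3 were higher at that level, beside 52.1% and 6.07% of all genes. As close relatives in 1 family, these genes are not independent of each other in such counts. BTN3A3 was at 1.10 ± 0.133 CPM in WT and 2.75 ± 0.991 CPM in P95H clones (1.33, SE 0.30, adjusted p = 0.282), and every P95H clone was above every WT clone (no overlap, as in 8.57% of all genes). The groups also did not overlap for AQP1 and LDB1, higher in P95H clones, and for ECE2 and PPIB, lower. Each of these was the only such gene tested in its list. BTN3A2 (0.95, SE 0.27, adjusted p = 0.318) and BTN3A1 (0.87, SE 0.28, adjusted p = 0.332) followed, with P38 lowest of the P95H clones for all 3.

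For the adhesion proteins, 11 of 12 integrin partners and relatives of ICAM4 were tested, 8 above 0 and 2 higher at an unadjusted p under 0.05. ITGA2B, the platelet integrin subunit, had 1.13 (SE 0.38, adjusted p = 0.340) and ITGB2, the leukocyte integrin subunit, 2.42 (SE 1.05, adjusted p = 0.415), the latter with 11.2 CPM in P22 against 0.432 to 0.649 CPM in P9, P15 and P38. Of 11 hyaluronan and ERM (ezrin, radixin and moesin) partners of CD44, 9 were tested, 6 above 0 with a median of 0.01 and none at an unadjusted p under 0.05. The BSG partners gave 5 tested of 6, with PPIB, cyclophilin B, at 481 ± 165 CPM in WT and 323 ± 25.6 CPM in P95H clones (-0.56, SE 0.19, adjusted p = 0.347) and the transporter SLC16A1 at 0.16 (SE 0.21). Of 13 erythroid transcription factors 12 were tested with a median of 0.25, and LDB1, KLF3, LMO2 and ZFPM1 were higher at an unadjusted p under 0.05, by 0.37 to 0.58, while GATA1 was at -0.21 (SE 0.21) and KLF1 at 0.29 (SE 0.20).

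Of the 9 genes, 6 had a log2 CPM range of at least 1.5 over the 9 libraries, and for these the genes with the most similar profile were sought among 12257 other protein-coding genes, by the root mean square difference of centred log2 CPM. For GYPB the nearest was GYPE at 0.382, against a spread of GYPB itself of 1.11, and the third was DEPP1 at 0.539 (YPEL4 at 0.532 with a prior count of 0.5). The nearest to GYPE were CDKN1A, the cyclin-dependent kinase inhibitor p21, at 0.366, then GYPB and SMPDL3A at 0.390. RHAG was most like DLL4 (0.214), ANTXR2 (0.218) and BBS12 (0.238), all low in P22 with 0.478, 18.5 and 2.30 CPM, the first 2 changing places with a prior count of 0.5. KEL was most like CAVIN4 (0.169), IRF1 (0.174), an interferon-responsive transcription factor, and CRYL1 (0.181), and ERMAP most like MYO18B (0.119), SEMA3B (0.159) and ST6GALNAC1 (0.173). No gene came close to the CD44 profile, the nearest being DOCK2 at 1.01, EPHB6 at 1.02 and CCND1 at 1.02 against a spread of CD44 of 1.92. With a prior count of 0.5 EPHB6 (1.026) came before DOCK2 (1.033). These distances describe 9 libraries and carry no test.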

How the data were processed

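The values the authors deposited are raw read counts per Ensembl gene, without normalization, 1 list for each of 9 polyadenylated RNA libraries (TruSeq, HiSeq2000, per the labels' protocols). HTSeq 0.6.1p1, TopHat2 2.0.4, bcl2fastq and the build GRCh37 are named in the submitters' processing notes. The file labels give Ensembl release 75. Not given in the sources used here are the strand and overlap settings and whether exons or only coding sequence were counted, which affects levels per length. The counter's summary values were left out. Reads assigned to genes made up 43.3 to 44.2% of those listed. Reads in no annotated feature made up 47.6 to 49.1% and ambiguous reads 2.23 to 2.55%, and the cause of these shares was not tested.

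Symbols, exon lengths and gene order came from GENCODE 29 (GRCh38), matched by gene ID, and promoters from RefSeq (GRCh38.p14). The test was edgeR 4.0.16 (R 4.3.3) with filterByExpr, TMM scaling, a robust quasi-likelihood fit and p-values adjusted by Benjamini-Hochberg across every gene tested, at 0.05. Single clones and the parental library were each a group of their own in 3-group fits, where a lone library borrows the spread of the other clones. The SE beside an edgeR difference was derived as the absolute log2 difference divided by the square root of the F statistic of the quasi-likelihood test. Log2 CPM used a prior count of 2. The scripts were tested on simulated data.

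The members and lists were chosen with earlier results of these data known. All 9 members are named. In each list at most 4 genes were named, first those past the threshold and then those with the smallest unadjusted p, with a few partners (SLC16A1, GATA1, KLF1) added after their values were seen. For members averaging 1 CPM or more and spanning a log2 range of at least 1.5, the 3 nearest profiles were named. One gene that these rules pick is not reported here. Other settings tried were DESeq2 1.42.0, limma-voom (limma 3.58.1), RLE scaling, upper quartile scaling, no filter, a filter of 1 CPM in 4 libraries, all 9 libraries in 3 groups, the parental library taken as WT, each clone left out, and W33 and P22 left out together.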

Additional observations from a re-analysis of the deposited data

Results flagged for a closer look

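Each gene's 4 WT and 4 P95H clones were searched for a value far from the others by the gap to the nearest clone relative to the group's range, judged by Dixon's 95% critical value. Of the 18 groups examined 1 passed, and chance flags about 1 in 20. This was ERMAP in the WT clones, where W19 at 48.8 CPM was apart from the other 3 (45.0 to 45.6 CPM) with a ratio of 0.839. The WT range is so narrow here that the gap is small beside the difference from P15 at 119 CPM.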

How the results depend on the processing

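No paired analysis was possible because the clone numbers in the titles are not shared between the groups. For P95H against WT clones, edgeR called 0 genes, and 2 with no filter, 261 with DESeq2, 59 with limma-voom, 5 with W33 and P22 both left out, and 0 to 1 with a single clone left out. For the parental line against WT clones the count of 1 became 0 with the filter of 1 CPM in 4 libraries, 7 with DESeq2 and 0 to 1 with 1 WT clone left out. The 2457 genes called for W33 became 0 to 671 when another WT clone was left out, and the 67 called for P22 became 15 to 27 without another P95H clone; fewer clones entered these fits. Of 64 alternative counts 49 stayed within 1.5 times, but many of these were 0 in both fits, which says little about stability.

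Among 216 alternative values of the 9 genes for P95H or the parental line against WT clones, 201 kept their direction and side of the threshold. KEL passed for P95H against WT clones with limma-voom (log2 difference 0.93, adjusted p = 0.0494). The fits of single clones are not in this count, and for KEL in W33 their outcome depended on the setting, as given above. With P95H against WT clones, leaving out 1 clone gave -0.10 to 0.44 for GYPC, -0.44 to 0.018 for RHAG and -0.15 to 0.25 for ICAM4. ICAM4 was also at -0.0063 with upper quartile scaling, -0.00091 in the 3-group fit and -0.048 with the parental library counted as WT. For the parental line, leaving out 1 WT clone gave -0.17 to 0.11 for GYPC, -0.30 to 0.14 for KEL, -0.0097 to 0.29 for BSG and -0.035 to 0.0058 for ERMAP. The cause of these changes was not tested. With a prior count of 0.5 the 18 profile distances moved by less than the member's own spread, a wide limit that says little. The largest move was that of DOCK2 from CD44, from 1.01 to 1.03. YPEL4 replaced DEPP1 near GYPB, and DLL4 and ANTXR2 near RHAG and DOCK2 and EPHB6 near CD44 changed places. Low read numbers limit CD44 in W19, W36, W42, P9 and P15 (18 to 94 reads) and GYPB in W42, P9 and P22 (74 to 89 reads).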
